A study of Mus musculus with 6 samples.

Results

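Myc and its partner network was followed in mouse mammary basal cells through 8 genes chosen by symbol, out of 51826 symbols with a count row. They encode the MYC proteins (Myc, Mycn and Mycl), their partner MAX (Max) and proteins that compete with MYC for MAX (Mxi1, Mxd1, Mxd4 and Mnt). Sorted GFP-positive cells (GFPpos, 3 libraries) were set against GFP-negative cells (GFPneg, 3 libraries). The sorted cells of both groups came from the same pools of 2 to 3 mice, so that libraries with the same replicate number form a pair. All mice carried SMAcreERT2, a Cre recombinase that tamoxifen activates and that the promoter of smooth muscle actin drives, together with the N1ICD allele of the intracellular domain of Notch1. The strain was C57B6/N, a single dose of tamoxifen was given on postnatal day 21, and cells were taken 72 hours later, on day 24. Both groups carry the allele and both received tamoxifen, and no library came from labelled cells without the allele. Effects of the allele and differences in which cells became GFP-positive therefore cannot be told apart.

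MYC is a transcription factor of the basic helix-loop-helix leucine zipper class that binds DNA as a dimer with MAX, at E-box sites among others, and raises genes of ribosome production, metabolism and the cell cycle. Proteins of the MXD group and MNT also dimerise with MAX and bring the SIN3-HDAC corepressor to the same sites. The MXD group is best known from cells that leave the cell cycle and differentiate. Myc is a known direct target of Notch1 in T cell leukaemia and in Notch-driven mouse mammary tumours, which is why its level is of interest in cells with this allele.

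The E-box CACGTG, the site that MYC-MAX and MXD-MAX dimers share, reads the same on both strands and was searched in RefSeq promoter entries (GRCm38.p6) of 250 bases before to 50 bases after each start. The 8 genes had 9 entries, for 7 of them. Myc itself had no entry, so that its promoter was not searched. Of the 9 entries, 3 (those of Max, Mxd4 and Mnt) held the E-box, against 7.15% of 32851 entries of all genes. These 3 are shown because the network's own genes hold its site there. The E-box is in capitals. The entries are chr12:76962199-76962498 (minus strand) for Max, chr5:34187661-34187960 (minus strand) for Mxd4 and chr11:74830674-74830973 (plus strand) for Mnt.
Max: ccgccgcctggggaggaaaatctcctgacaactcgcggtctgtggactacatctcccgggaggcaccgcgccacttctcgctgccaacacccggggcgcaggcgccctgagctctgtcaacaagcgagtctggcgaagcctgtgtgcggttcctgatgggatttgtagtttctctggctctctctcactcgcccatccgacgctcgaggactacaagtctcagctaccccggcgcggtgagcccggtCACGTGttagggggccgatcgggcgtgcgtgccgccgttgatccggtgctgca
Mxd4: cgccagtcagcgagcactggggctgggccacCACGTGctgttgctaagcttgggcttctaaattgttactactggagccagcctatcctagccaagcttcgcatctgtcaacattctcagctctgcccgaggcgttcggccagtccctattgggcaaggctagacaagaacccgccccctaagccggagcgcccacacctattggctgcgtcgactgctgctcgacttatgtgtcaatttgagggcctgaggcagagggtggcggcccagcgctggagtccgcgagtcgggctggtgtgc
Mnt: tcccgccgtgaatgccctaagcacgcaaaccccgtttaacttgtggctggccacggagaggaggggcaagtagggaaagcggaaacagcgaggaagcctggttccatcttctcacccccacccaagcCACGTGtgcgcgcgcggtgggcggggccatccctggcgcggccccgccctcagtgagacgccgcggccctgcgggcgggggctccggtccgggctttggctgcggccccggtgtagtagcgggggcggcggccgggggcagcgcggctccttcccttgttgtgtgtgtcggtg
The E-box began 3 bases before the annotated start in Max, so that it spans the start, 123 bases before it in Mnt and 219 bases before it in Mxd4. The core of the site of RBPJ, the DNA-binding partner of the Notch intracellular domain, was searched as TGGGAA on both strands. It was found in 2 of the 9 entries (both of Mxi1), against 25.6% of all entries, and Myc was not among the genes searched. A match is a description of letters and shows no binding.

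GFPneg replicate 1 stood apart from the other libraries in depth. It held 611465 gene counts, against 9912610 to 16043492 in the other 5 libraries, and 69.2% of them lay in 5 abundant noncoding features, against 22.7% to 34.7%. One count there equals 3.28 CPM (the usual unit of counts scaled to a common library size, here with TMM factors), against 0.0513 to 0.0911 CPM elsewhere, so that its values for the network rest on 2 to 51 counts per gene. Its TMM factor was 0.501, against 1.05 to 1.22 elsewhere, and all pair 1 ratios depend on that scaling beyond their counting error. Fold changes of the 8 genes are therefore also given without GFPneg replicate 1, as are those of other named genes whose direction this library turned. Notch1, the gene whose domain the allele carries, stood at 506, 459 and 423 CPM in GFPpos cells, against 105, 177 and 267 CPM in GFPneg cells, of replicates 1, 2 and 3 (adjusted p = 0.625, edgeR's quasi-likelihood test). It was higher in GFPpos cells of all 3 pairs. Its adjusted p was 0.296 with the replicate block, 0.146 without GFPneg replicate 1 and 0.0350 with the block on pairs 2 and 3, so that the last of these fits called it higher. The basal markers fixed for the check were all present in each library (8 of 8, summing to 6217 to 7462 CPM in GFPpos and 8190 to 12935 CPM in GFPneg), among them Krt5, Krt14 and Trp63.

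Of the 8 network genes, 0 were called higher or lower in GFPpos cells at an adjusted p below 0.05 (edgeR's quasi-likelihood test, Benjamini-Hochberg adjustment over 13873 genes), against 0.0649% of all genes tested. At an unadjusted p below 0.05 the count was also 0 of 8, against 5.26% of all genes. DESeq2 and limma-voom also called 0 members, against 0.706% and 0.562% of all genes, and each had 1 member at an unadjusted p below 0.05 (Mycn with DESeq2, Mxd4 with limma-voom). Over all 13873 genes, 444 higher and 576 lower genes passed that unadjusted threshold with DESeq2. For limma-voom the numbers were 713 higher and 648 lower, so that 1 member of 8 does not stand out. With the replicate number as a block, 0 members were called against 0.440% of all genes, and without GFPneg replicate 1, 0 members against 0.602%. Members were also called 0 times with DESeq2 and the block (1.10% of all genes), with no low count filter (1.22%), with limma-voom, sample quality weights and the block (2.55%), and with the block on pairs 2 and 3 (3.92%). In bulk RNA, fewer cells of a type and less RNA per cell cannot be told apart, here and below.

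Myc was the dominant gene of the network in both groups. It stood at 410, 283 and 400 CPM in GFPpos replicates 1, 2 and 3, against 167, 335 and 545 CPM in GFPneg replicates 1, 2 and 3. The highest and the lowest of the 6 values were both GFPneg libraries, and the GFPpos values lay between them. The means were 364 ± 70.2 CPM in GFPpos cells, against 349 ± 189 CPM in GFPneg cells (SD, n = 3 each), with a log2 fold change of 0.05 (SE 0.44, 95% interval -0.88 to 0.98, edgeR adjusted p = 1.00). That interval runs from 0.543-fold to 1.97-fold. Without GFPneg replicate 1 the log2 fold change was -0.25 (interval -0.89 to 0.39, edgeR adjusted p = 0.928), so that the sign of the difference turned. The sign also turned, to -0.02 each, when GFPpos replicate 1 or GFPpos replicate 3 was left out instead. By mean CPM per kb of exon Myc ranked 145 in GFPpos and 138 in GFPneg cells among 13519 genes with a length.

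The pairs of Myc disagreed in direction by more than their counting error. The ratio of GFPpos to GFPneg was 2.45 in pair 1 (95% interval 1.86 to 3.29, counting error only), 0.844 in pair 2 (0.811 to 0.880) and 0.734 in pair 3 (0.709 to 0.759). Myc was thus higher in GFPpos cells only in the pair that holds the shallow library, where the GFPneg value rests on 51 counts. The gene lies on chromosome 15 (61985391 to 61990374, plus strand, mm10), and no other gene annotated in GENCODE M21 overlaps it.

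**Figure D1:**
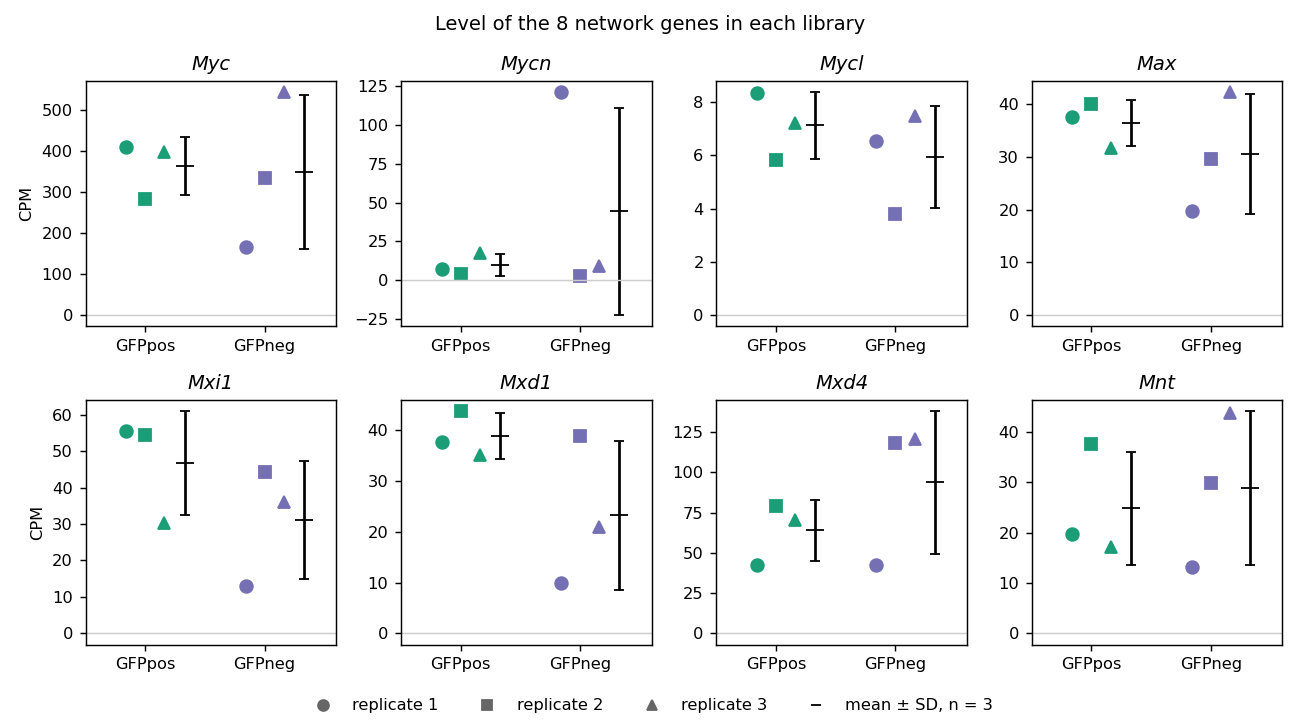
Level of each network gene in CPM (linear axes that differ between panels) by group, with 1 point per library, marker shape for the replicate, and bars for mean ± SD of 3 libraries. The groups overlap in all 8 panels, and the Mycn value of 121 CPM in GFPneg replicate 1 stands above every other Mycn value.

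Mycn (chromosome 12, 12936093 to 12941914, minus strand), a paralog best known from embryonic and neural progenitors, was low in 5 libraries and high in 1. It stood at 7.43, 3.97 and 17.8 CPM in GFPpos replicates 1, 2 and 3, against 121, 2.77 and 9.02 CPM in GFPneg replicates 1, 2 and 3. The high value came from 37 counts in the shallow library and was 6.81 times the highest of the other libraries. A value in that library at 5 times or more the highest of the others was found in 2.36% of all genes tested. The log2 fold change was -2.02 (SE 1.12, adjusted p = 1.00) with all libraries and 0.75 (SE 0.88, adjusted p = 0.928) without GFPneg replicate 1 in edgeR's quasi-likelihood test. With the replicate number as a block on all libraries it was -0.55 (SE 1.11). The pair 1 ratio was 0.0612 (95% interval 0.0411 to 0.0929, counting error only). In pairs 2 and 3 Mycn was higher in GFPpos cells, with ratios of 1.43 (95% interval 0.957 to 2.14) and 1.97 (1.57 to 2.49).

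Mycl (chromosome 4, 122995652 to 123002485, plus strand), the third MYC paralog, was the least abundant member per length over the 6 libraries. It stood at 8.34, 5.84 and 7.22 CPM in GFPpos replicates 1, 2 and 3, against 6.56, 3.80 and 7.47 CPM in GFPneg replicates 1, 2 and 3, and the groups overlapped (log2 fold change 0.29, SE 0.98, edgeR adjusted p = 1.00). Its log2 fold change without GFPneg replicate 1 was 0.36 (SE 0.83). Myc made up 96.3%, 96.7% and 94.1% of the counts of the 3 MYC genes in GFPpos replicates 1, 2 and 3, against 56.7%, 98.1% and 97.1% in GFPneg replicates 1, 2 and 3. The 95% exact binomial interval of the outlying 56.7% was 45.8% to 67.1%.

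Max (chromosome 12, 76937269 to 76962201, minus strand), the partner that both MYC and its competitors need, did not pass the test. It stood at 37.6, 40.1 and 31.6 CPM in GFPpos replicates 1, 2 and 3, against 19.7, 29.6 and 42.3 CPM in GFPneg replicates 1, 2 and 3. The GFPneg range enclosed the GFPpos values, and the log2 fold change was 0.21 (SE 0.59, 95% interval -1.05 to 1.48, edgeR adjusted p = 1.00). Without GFPneg replicate 1 it was 0.04 (adjusted p = 0.995). Its pairs 2 and 3 went in opposite directions, with ratios of 1.36 (1.20 to 1.53) and 0.748 (0.662 to 0.846).

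Among the competitors, Mxd4 showed the lower values in GFPpos cells and Mxd1 the higher ones, and neither passed the test. Mxd4 (chromosome 5, 34173883 to 34187720, minus strand) encodes an MXD repressor and was the most abundant competitor per kb of exon in each GFPneg library. It stood at 42.7, 78.9 and 70.4 CPM in GFPpos replicates 1, 2 and 3, against 42.6, 118 and 121 CPM in GFPneg replicates 1, 2 and 3. All GFPpos values lay below the GFPneg libraries of replicates 2 and 3. The replicate 1 values coincided, but the GFPneg one rests on 13 counts. The log2 fold change was -0.59 (SE 0.50, 95% interval -1.66 to 0.48, edgeR adjusted p = 1.00). Without GFPneg replicate 1 it was -0.88 (interval -1.56 to -0.21 before adjustment, adjusted p = 0.338). The ratio was 1.00 (0.580 to 1.89, counting error only) in pair 1, 0.667 (0.618 to 0.718) in pair 2 and 0.583 (0.540 to 0.629) in pair 3. Mxd4 was the 1 member of 8 whose GFPpos values all lay below GFPneg replicates 2 and 3, a pattern found in 13.6% of all genes tested, with 0 members in the opposite pattern (12.6%).

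Mxd1 (chromosome 6, 86647042 to 86669161, minus strand), the founding MXD repressor, was the 1 member of 8 that was higher in GFPpos cells of all 3 pairs, as were 21.5% of all genes tested, and 0 members were lower in all 3 (8.07%). It stood at 37.7, 43.9 and 35.1 CPM in GFPpos replicates 1, 2 and 3, against 9.84, 39.0 and 20.95 CPM in GFPneg replicates 1, 2 and 3. The groups overlapped through GFPneg replicate 2, and the GFPneg value of replicate 1 rests on 3 counts. The log2 fold change was 0.66 (SE 0.64, 95% interval -0.70 to 2.02, edgeR adjusted p = 1.00), and 0.39 (adjusted p = 0.897) without GFPneg replicate 1. The ratio was 1.13 (1.01 to 1.26) in pair 2 and 1.68 (1.44 to 1.96) in pair 3.

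**Figure D2:**
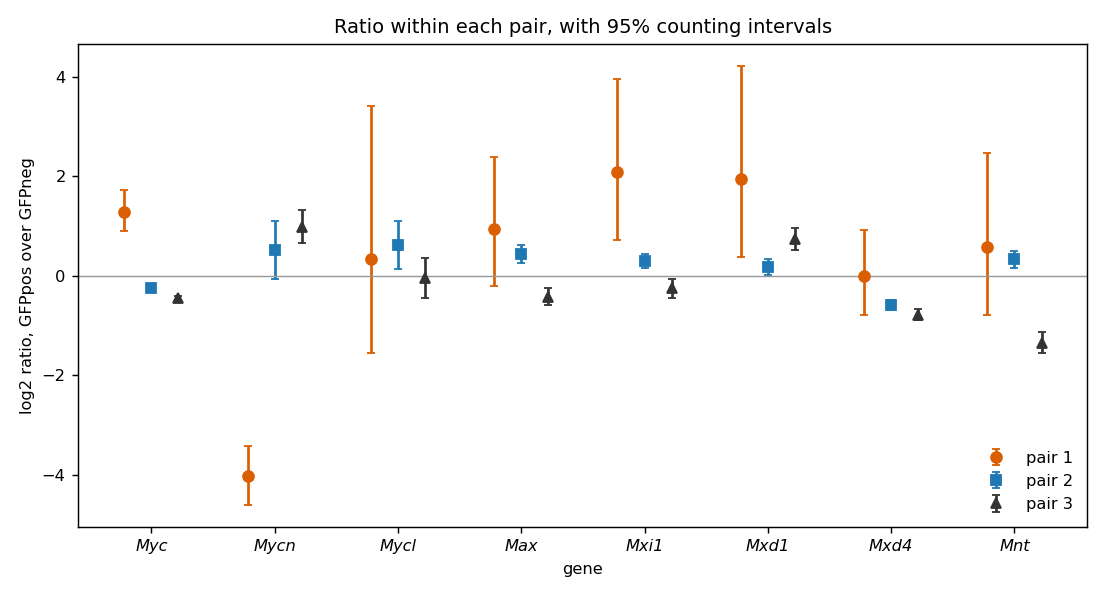
Log2 ratio of GFPpos to GFPneg in each of the 3 pairs for the 8 genes, with 95% exact intervals that cover counting error only. Mxd1 lies above 0 in all 3 pairs, and Myc lies above 0 in pair 1 and below 0 in pairs 2 and 3.

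Mxi1 (chromosome 19, 53310518 to 53375810, plus strand), another MXD repressor, stood at 55.6, 54.5 and 30.3 CPM in GFPpos replicates 1, 2 and 3, against 13.1, 44.2 and 36.0 CPM in GFPneg replicates 1, 2 and 3. It was higher in GFPpos cells in pairs 1 and 2 and lower in pair 3 (log2 fold change 0.52, SE 0.60, edgeR adjusted p = 1.00). Without GFPneg replicate 1 the log2 fold change of Mxi1 was 0.24 (adjusted p = 0.948). Mnt (chromosome 11, 74830920 to 74845725, plus strand), a broadly expressed competitor that is not restricted to differentiating cells, stood at 19.7, 37.7 and 17.2 CPM in GFPpos replicates 1, 2 and 3, against 13.1, 30.0 and 43.7 CPM in GFPneg replicates 1, 2 and 3. Its pair 3 ratio of 0.394 (0.342 to 0.454) went against pairs 1 and 2, and its log2 fold change was -0.28 (SE 0.67, edgeR adjusted p = 1.00). Without GFPneg replicate 1 the value was -0.54 (adjusted p = 0.862). Leaving out GFPneg replicate 3 instead turned it to 0.12 (adjusted p = 0.999).

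Levels of different genes were compared in CPM per kb of exon, with exon lengths from GENCODE M21. Over the 6 libraries the mean level was 131 ± 47.1 for Myc, 9.31 ± 4.09 for Mxd4, 9.30 ± 2.32 for Max, 8.21 ± 14.1 for Mycn, 5.82 ± 2.64 for Mnt, 5.71 ± 2.36 for Mxi1, 4.39 ± 1.83 for Mxd1 and 1.62 ± 0.392 for Mycl (SD, n = 6). The only neighbours in this order that lie apart by more than their spread are Myc and Mxd4, and Mxd1 and Mycl. Without GFPneg replicate 1 the mean of Mycn was 2.49 ± 1.80 (n = 5), the lowest level but that of Mycl at 1.62 ± 0.439.

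The ratio of Myc to the sum of its 4 competitors does not depend on how libraries are scaled to each other. Per kb of exon it was 6.62, 3.30 and 6.86 in GFPpos replicates 1, 2 and 3, against 5.51, 3.81 and 6.28 in GFPneg replicates 1, 2 and 3. The replicate 2 libraries were the lowest of their groups, and the groups overlapped. On the log2 scale the means were 2.41 ± 0.60 in GFPpos and 2.35 ± 0.37 in GFPneg cells (SD, n = 3 each), a difference of 0.06, which is smaller than either SD. The difference was 0.12 without GFPneg replicate 1 and 0.41 without GFPpos replicate 2, the lowest library. The competitors summed to 22.8, 31.6 and 21.4 CPM per kb in GFPpos replicates 1, 2 and 3, against 11.2, 32.4 and 31.9 in GFPneg replicates 1, 2 and 3.

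**Figure D3:**
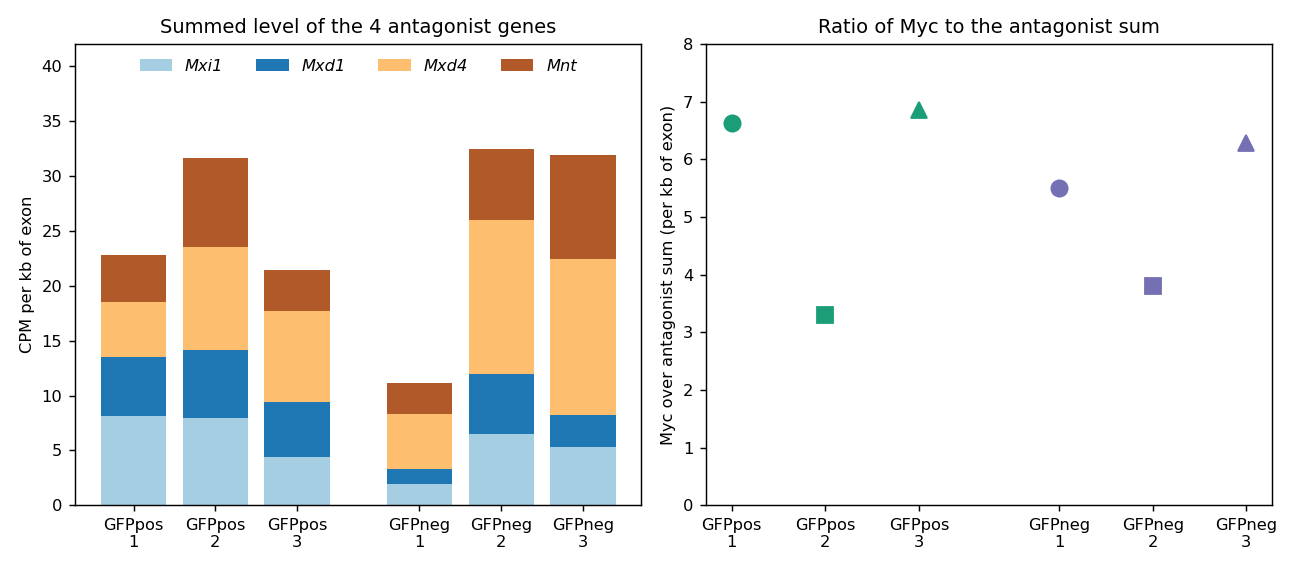
Left, summed level of the 4 competitor genes in CPM per kb of exon by library, stacked by gene; right, ratio of Myc to that sum in the same libraries. The ratio runs from 3.30 to 6.86 in GFPpos and from 3.81 to 6.28 in GFPneg libraries.

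The makeup of the competitor counts did separate the groups, in a measure chosen after its values were seen and given with no test. Mxd4 made up 27.4%, 36.7% and 46.0% of the counts of the 4 competitors in GFPpos replicates 1, 2 and 3, against 54.2%, 51.1% and 54.5% in GFPneg replicates 1, 2 and 3. The 95% exact binomial interval was 44.2% to 47.8% for the highest GFPpos share, and 32.8% to 74.4% for GFPneg replicate 1, with 24 counts in all. Counts of Mxd1 per count of Mxd4 were 0.883, 0.556 and 0.499 in GFPpos replicates 1, 2 and 3, against 0.231, 0.329 and 0.174 in GFPneg replicates 1, 2 and 3, without overlap. The same held for Mxi1 and for none of the other 5 members. A ratio to Mxd4 that was higher in all GFPpos libraries was found in 29.5% of 13872 tested genes, so that 2 of 7 members is close to that background. The opposite was found for 0 members and 0.598% of genes.

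Among 7 other genes of the extended network, 6 were tested and 0 were called in edgeR's quasi-likelihood test. At an unadjusted p below 0.05 there was 1 (Mlxipl), against 5.26% of all genes tested. The median log2 fold change of the 6 was 0.44, beside 0.15 for all genes tested. Mlxipl, a glucose-responsive factor that pairs with MLX, stood at 1.63, 2.41 and 0.52 CPM in GFPpos replicates 1, 2 and 3, against 19.7, 2.93 and 13.6 CPM in GFPneg replicates 1, 2 and 3 (log2 fold change -2.89, SE 1.21, adjusted p = 0.843). All its GFPpos values lay below its GFPneg values. Mxd3, an MXD gene known for its expression in S phase, stood at 16.8, 9.49 and 9.55 CPM in GFPpos replicates 1, 2 and 3, against 0, 5.90 and 0 CPM in GFPneg replicates 1, 2 and 3 (adjusted p = 1.00), also without overlap. Pvt1, described further below, was the only other gene of the 6 without overlap, with GFPpos higher. Groups that do not overlap were found for 9.53% of tested genes with GFPpos higher and 3.63% with GFPpos lower, and for 0 of the 8 members. Mlxip, the paralog of Mlxipl, averaged 147 ± 7.45 CPM in GFPpos cells, against 229 ± 76.0 CPM in GFPneg cells (log2 fold change -0.64, adjusted p = 1.00).

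Beside Mxd3, the 12 mitotic marker genes summed to 2106, 1993 and 1196 CPM in GFPpos replicates 1, 2 and 3, against 167, 818 and 185 CPM in GFPneg replicates 1, 2 and 3. In GFPneg replicate 1, 5 of the 12 had counts, and Cdk1, Plk1 and Ccnb1 were at 0. The part of these markers in the values of network genes was not tested.

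Genes of the machinery that MYC and MXD dimers recruit were not called. Of 17 coactivator genes, 0 were called by edgeR, DESeq2 or limma-voom and 0 had an unadjusted p below 0.05 in any of them, with a median log2 fold change of 0.17. Ccnt1, a subunit of the elongation factor P-TEFb, averaged 74.1 ± 14.2 CPM in GFPpos cells, against 110 ± 66.9 CPM in GFPneg cells. Wdr5, which helps MYC to dock on chromatin, averaged 26.9 ± 1.45 CPM in GFPpos cells, against 50.9 ± 61.4 CPM in GFPneg cells. The ATPase gene Ruvbl1 averaged 11.3 ± 0.970 CPM in GFPpos cells, against 5.09 ± 4.44 CPM in GFPneg cells. Of 15 SIN3-HDAC genes, 0 were called and 0 had an unadjusted p below 0.05 with the same tools, with a median of -0.17. The deacetylase gene Hdac1 stood at 10.9, 11.1 and 10.9 CPM in GFPpos replicates 1, 2 and 3, against 75.4, 9.34 and 9.93 CPM in GFPneg replicates 1, 2 and 3. Like Mycn and Wdr5, Hdac1 was high in the shallow GFPneg library alone. Hdac2 averaged 65.6 ± 12.7 CPM in GFPpos cells, against 94.5 ± 60.5 CPM in GFPneg cells, and Suds3, a SIN3 subunit gene, 63.1 ± 9.42 CPM in GFPpos cells, against 41.9 ± 31.04 CPM in GFPneg cells. Ccnt1, Wdr5, Hdac1 and Hdac2 were all highest in GFPneg replicate 1, and their direction turned without it. The log2 fold change of Ccnt1 was 0.08 without that library, against -0.52 with it, that of Wdr5 0.80 against -0.78, that of Hdac1 0.20 against -1.36, and that of Hdac2 0.15 against -0.47 (adjusted p from 0.743 to 0.988 without it, edgeR's quasi-likelihood test).

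Of 19 genes that set how long MYC protein persists, 18 were tested and 0 were called by edgeR with the 6 libraries (median log2 fold change 0.38). At an unadjusted p below 0.05 edgeR had 1 gene of the list lower, against 5.26% of all genes tested in either direction. That gene was Fbxo32, which encodes an F-box protein best known from muscle atrophy. It stood at 70.9, 77.3 and 94.99 CPM in GFPpos replicates 1, 2 and 3, against 65.6, 236 and 317 CPM in GFPneg replicates 1, 2 and 3. The replicate 1 values lay close together, and Fbxo32 was lower in GFPpos cells of pairs 2 and 3. Its log2 fold change was -1.37 (SE 0.51, adjusted p = 0.747), and it fell without GFPneg replicate 1 (log2 -1.75, adjusted p = 0.0104). It also fell with the replicate block on pairs 2 and 3 (log2 -1.65, adjusted p = 5.25e-05, with 3.92% of all genes called). The mitotic kinase gene Aurka, whose protein can shield MYCN from degradation, averaged 14.9 ± 7.25 CPM in GFPpos cells, against 2.36 ± 4.09 CPM in GFPneg cells (adjusted p = 1.00), with 0 counts in GFPneg replicates 1 and 3. Gsk3a, which encodes a kinase that marks MYC for degradation, averaged 47.9 ± 13.5 CPM in GFPpos cells, against 78.2 ± 38.0 CPM in GFPneg cells (adjusted p = 1.00).

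Genes that MYC is known to raise were not called with the 6 libraries. Of 26 nucleolar and ribosome assembly genes, 25 were tested, 18 had positive and 7 negative fold changes, and 0 were called by edgeR, DESeq2 or limma-voom (0 at an unadjusted p below 0.05 in each). Their median log2 fold change was 0.25, beside 0.15 for all genes tested. Without GFPneg replicate 1 it was 0.29, beside 0.04 for all genes tested, with 0 called by edgeR. Pa2g4, a growth regulator of the nucleolus, averaged 110 ± 33.3 CPM in GFPpos cells, against 62.6 ± 25.8 CPM in GFPneg cells, and was higher in GFPpos cells of all 3 pairs. Rrp12, a ribosome export factor gene, averaged 24.3 ± 4.12 CPM in GFPpos cells, against 11.2 ± 1.83 CPM in GFPneg cells. The helicase gene Ddx18 averaged 6.64 ± 2.94 CPM in GFPpos cells, against 1.68 ± 1.54 CPM in GFPneg cells. None of these 3 passed (adjusted p = 1.00 each, edgeR's quasi-likelihood test).

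Of 28 metabolic, translation and cell cycle targets, 18 had positive and 10 negative fold changes, with a median of 0.28 and 0 called by edgeR, DESeq2 or limma-voom. Without GFPneg replicate 1 the median was 0.16, beside 0.04 for all genes tested. At an unadjusted p below 0.05 edgeR, DESeq2 and limma-voom each had 1 gene of the list higher and 2 lower. Over all 13873 genes edgeR had 330 higher and 400 lower at that threshold, DESeq2 444 and 576, and limma-voom 713 and 648. Cad, which encodes the enzyme that opens pyrimidine synthesis, stood at 64.4, 98.7 and 80.9 CPM in GFPpos replicates 1, 2 and 3, against 13.1, 47.2 and 34.3 CPM in GFPneg replicates 1, 2 and 3 (log2 fold change 1.29, SE 0.55, adjusted p = 0.843). Its groups did not overlap, and it rose with the replicate block on pairs 2 and 3 (log2 1.17, edgeR adjusted p = 0.0319, with 3.92% of all genes called). Hk2, which encodes the glycolytic enzyme hexokinase 2, stood at 17.4, 26.5 and 33.9 CPM in GFPpos replicates 1, 2 and 3, against 190, 50.3 and 58.1 CPM in GFPneg replicates 1, 2 and 3 (log2 fold change -1.88, SE 0.60, adjusted p = 0.640). The cyclin gene Ccnd2 stood at 55.1, 57.7 and 126 CPM in GFPpos replicates 1, 2 and 3, against 193, 167 and 126 CPM in GFPneg replicates 1, 2 and 3 (adjusted p = 0.921). Hk2 did not overlap between the groups either, while the replicate 3 values of Ccnd2 nearly coincided.

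**Figure D4:**
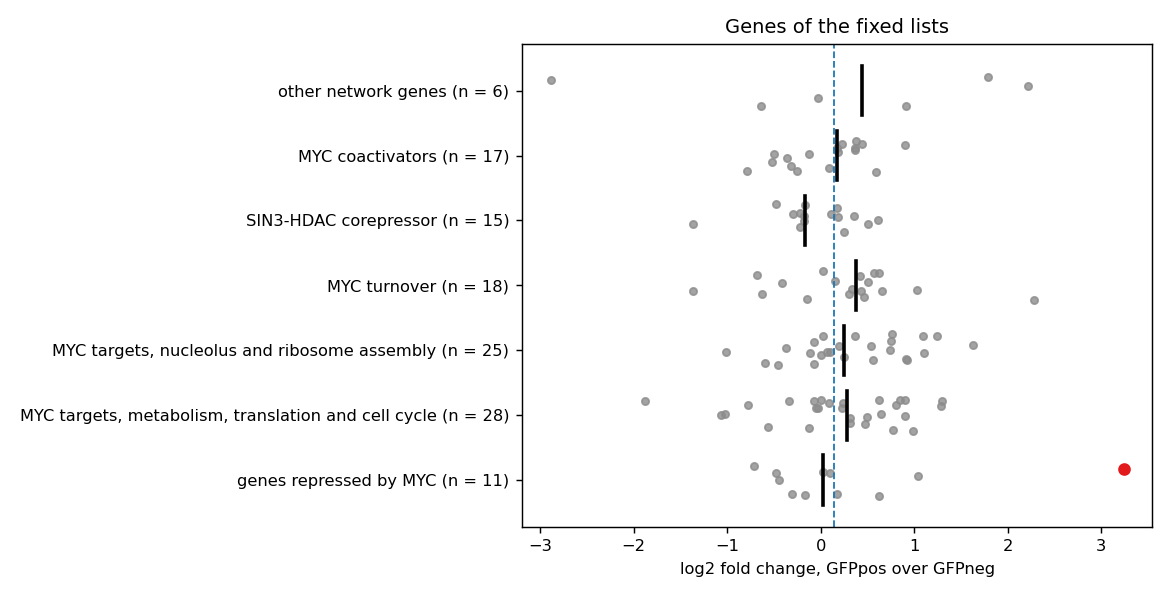
Log2 fold change of each tested gene in the 7 gene lists, with a black bar for the median of a list, a dashed line for the median of all tested genes (0.15) and red for genes at an adjusted p below 0.05. The medians lie between -0.17 and 0.44, and Clu is the 1 red point.

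Of 12 genes that MYC is known to repress, a list chosen with earlier results of these data known, 11 were tested. In this list 1 gene was called, against 0.0649% of all genes tested. That gene, Clu (clusterin, a secreted chaperone), was higher in GFPpos cells, at 835, 1115 and 2488 CPM in GFPpos replicates 1, 2 and 3, against 220, 106 and 149 CPM in GFPneg replicates 1, 2 and 3 (log2 fold change 3.24, SE 0.50, edgeR adjusted p = 0.0197). It was not called without GFPpos replicate 3 or without GFPneg replicate 2. The list median was 0.03, and the other tested members, among them the growth arrest gene Cdkn1a, were not called.

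The genes whose log2 CPM followed Myc most closely over the 6 libraries were Rasa2 (Pearson's r = 0.999), Fosl1 (0.998), Gas2l1 (0.996), Rbm5 (0.994) and Iqsec2 (0.994), out of 7694 compared. Over 5 libraries without GFPneg replicate 1 they were Maff (1.00), Rasa2 (0.999), Nop56 (0.997), Cactin (0.996) and Gas2l1 (0.995), out of 8248. With 5 or 6 points that share library depth and composition, values this high are a description. Rasa2 stood at 26.5, 10.5 and 24.7 CPM in GFPpos replicates 1, 2 and 3, against 3.28, 15.4 and 48.3 CPM in GFPneg replicates 1, 2 and 3, the same order of libraries as Myc.

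Markers of other cell types differed between the same libraries in which the network was measured. Fibroblast markers summed to 239 to 380 CPM in GFPpos and 689 to 1681 CPM in GFPneg libraries, with Lum at 0 in all 6. Pericyte markers summed to 289 to 672 CPM in GFPpos and 42.6 to 210 CPM in GFPneg libraries, with 1 of 8 markers detected in GFPneg replicate 1. That marker was Notch3, itself a Notch receptor gene, and without it the sums of the other pericyte markers overlapped between the groups. In replicates 1, 2 and 3 Notch3 stood at 155, 101 and 279 CPM in GFPpos, against 42.6, 21.7 and 61.5 CPM in GFPneg libraries. Among the other pericyte markers Cspg4 did not overlap between the groups, while Rgs5, Pdgfrb and Anpep did. Luminal markers summed to 624 to 891 CPM in GFPpos and 239 to 518 CPM in GFPneg libraries, and Schwann cell markers to 104 to 148 CPM in GFPpos and 178 to 889 CPM in GFPneg libraries. Endothelial markers overlapped, at 709 to 2085 CPM in GFPpos and 563 to 1426 CPM in GFPneg libraries, as did adipocyte markers (42.2 to 161 CPM in GFPpos and 86.7 to 150 CPM in GFPneg). Immune markers were at 5.62 to 24.8 CPM in GFPpos and 7.70 to 32.8 CPM in GFPneg libraries, with Csf1r at 0 in all 6. The part of these cells in the values of the network was not tested.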

How the data were processed

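RNA was sequenced from sorted cells in 6 libraries, grouped and numbered by their titles. For each library the authors deposited unnormalised read counts, with 51826 symbols and 5 summary rows that were left out. The submitters' processing notes name FastQC, cutadapt, TopHat2, HTSeq and the build mm10. Strandedness of the counting, tool versions and the annotation release were not given in the sources used. Antisense genes overlap 6.06% of the exon bases of Mxd4 and 2.84% of those of Mxi1. Reads there could have been given to either gene or left out as ambiguous. Positions and exon lengths came from GENCODE M21.

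Group was the only term of a quasi-likelihood F test in edgeR 4.0.16 (R 4.3.3), after TMM scaling and filterByExpr, on the 13873 genes that remained, with Benjamini-Hochberg adjustment at 0.05. DESeq2 1.42.0, limma-voom (limma 3.58.1), a replicate block, other scalings and filters, and leaving out libraries and pairs were alternatives. A fit with sample quality weights was chosen after seeing the data. Reads summarised to no feature made up 28.8% to 66.4% of a library. Per the series' design both fractions of a replicate came from 1 pool, so that numbers pair the samples. Deviations from the group means of paired libraries correlated at -0.016, 0.095 and 0.011. The scripts were tested on simulated data. The replicates are pools of mice, so that p-values measure spread between pools.

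The members and lists were chosen with earlier results of these data known. Named genes are the members, the called genes of each list or else the 3 with the smallest p, and the 5 genes most like Myc (Pearson's r of log2 CPM with a prior count of 2, mean of at least 10 CPM). Other names were chosen after their values were seen. Of the listed symbols Cip2a had no row of that name, and Mycs had 0 counts.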

Additional observations from a re-analysis of the deposited data

How the results depend on the processing

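In all 19 alternatives 0 of the 8 members were called, and the calls in the coactivator, SIN3-HDAC, nucleolar and extended network lists also stayed at 0. The number of called genes over the whole table was 9 and moved to 61 with the replicate block, 602 with the replicate block without replicate 1 (2 pairs, few residual degrees of freedom), 98 with DESeq2, 152 with DESeq2 and the block, 78 with limma-voom, 301 with no low count filter and 354 with limma-voom, sample quality weights and the block. Fits without 1 library or 1 pair called 3 to 92. Where a group was left with 2 libraries they were taken to vary like the others. The Myc log2 fold change of 0.05 turned to -0.32 with the replicate block without replicate 1, -0.14 with limma-voom and -0.24 with quality weights, and ranged from -0.34 to 0.52 over the fits without a library or pair. That of Mycn (-2.02) was -0.55 with the replicate block. It turned to 0.77 with the block without replicate 1 and 0.74 with limma-voom, and ranged from -3.37 to 0.92 over the leave-out fits. That of Mnt ranged from -0.69 to 0.35 there. Mycl, Max, Mxi1, Mxd1 and Mxd4 kept their direction in 19 of 19. Over these alternatives the adjusted p ranged from 0.338 to 1.00 for Mxd4 and from 0.573 to 1.00 for Mxd1. In the turnover list 1 gene (Fbxo32) was called with limma-voom, with quality weights, without GFPneg replicate 1 and with the block without replicate 1, which also called 1 metabolic target (Cad). The call of Clu gave 0 to 1 over the leave-out fits. Scaling by library size only moved the median log2 fold change of all genes to 0.31, against 0.15, and turned no member. The log2 difference in the Myc to competitor ratio ranged from -0.15 to 0.41 over 12 alternatives. The 0.41 (without GFPpos replicate 2) exceeds the GFPneg SD of 0.37. It is below the GFPpos SD of 0.60 over all 3 libraries, but that SD includes the library left out. GFPpos replicates 1 and 3 stood at 2.73 and 2.78 on the log2 scale. The cause of these turns was not tested. Depth limits GFPneg replicate 1, where 5 of the 8 members have 6 counts or fewer.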

Other observations

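Pvt1, the noncoding gene next to Myc, had 23, 61 and 44 counts (2.08, 4.75 and 2.28 CPM) in GFPpos replicates 1, 2 and 3. In GFPneg replicates 1, 2 and 3 Pvt1 had 0, 38 and 0 counts (0, 1.95 and 0 CPM, edgeR's quasi-likelihood test, adjusted p = 1.00). Its groups did not overlap, but 1 count in GFPneg replicate 1 equals 3.28 CPM, above its GFPpos values of replicates 1 and 3. The gene was named after its values were seen. Fbxw7, which encodes the F-box protein that marks both MYC and the Notch intracellular domain for degradation, stood at 51.4, 47.5 and 53.5 CPM in GFPpos replicates 1, 2 and 3, against 39.3, 52.5 and 56.2 CPM in GFPneg replicates 1, 2 and 3 (log2 fold change 0.02, SE 0.50, adjusted p = 1.00, and -0.08 when GFPneg replicate 1 is left out), and was likewise named after its values were seen.

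Mycn had 82, 51 and 343 counts in GFPpos replicates 1, 2 and 3, against 37, 54 and 99 counts in GFPneg replicates 1, 2 and 3, beside 51 counts of Myc in GFPneg replicate 1. Wdr5, which was also high there in CPM, had 37 counts in that library.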
